A study of Mus musculus with 4 samples.

Results

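The 10 genes described here, Gadd45a, Gadd45b, Gadd45g, Cdkn1a, Mdm2, Ccng1, Trp53, Ccnd1, Sesn1 and Bax, are the 3 members of the Gadd45 family together with genes of the p53 stress response and the G1 cyclin Ccnd1. They were taken by symbol from the 32285 genes counted in each library of a single-cell RNA-Seq (scRNA-Seq) experiment on mouse kidney, and the set was chosen by measured values of these data, since Gadd45g was higher in proximal tubule (PT) cells of mutant mice. The genotype difference of Gadd45g in PT cells is for this reason given as a description and supports nothing else. All 10 genes were detected.

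The experiment asked how kidney cells of Sweet Pee (SP) mice differ from those of WT mice under a normal diet (ND) or a high-fat diet (HFD). SP mice have a missense mutation in Slc5a2, which encodes the glucose cotransporter SGLT2. There are 4 libraries, 1 for each genotype and diet (WT-ND, WT-HFD, SP-ND, SP-HFD), and 4 values given without labels below follow that order. All mice were C3H males, 18 weeks of age at harvest, and diets were given from 10 weeks of age for 8 weeks, with 60% of calories from fat in HFD. The mutation is carried in every cell of the animal, and SGLT2 acts in the early PT, so that a difference in any other cell type was measured in an animal that also lost glucose to the urine. The number of mice behind each library is not given in the sources used here.

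GADD45 proteins are small acidic proteins without known enzymatic activity. They are made in response to DNA damage, osmotic stress, cytokines and growth arrest, and they bind partners such as MAP3K4, which feeds the p38 and JNK kinases, PCNA and CDK1. The transcription factor p53, encoded by Trp53, is held low by the ubiquitin ligase MDM2 and, once stabilized, raises the expression of genes that stop the cell cycle, repair DNA, limit growth signals or start apoptosis, with Cdkn1a (p21), Mdm2 itself, Ccng1, Sesn1, Bax and Gadd45a among its best-known targets.

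Promoter sequences are shown for the family member that differed most in clusters named as PT, for a family member that was nearly absent from the same clusters, and for Cdkn1a, the reference target of p53. RefSeq windows on GRCm38.p6, each of 300 bases (250 before and 50 after the start of transcription), were matched for 9 of the 10 genes, with Cdkn1a and Sesn1 represented by more than 1 window (11 windows in all). In the Gadd45g window (chr13:51846425-51846724, plus strand) capitals mark the E-box CACGTG at -142, the CCAAT box at -78 and the TATA box TATAAA at -27 from the start. In the Gadd45b window (chr10:80929841-80930140, plus strand) the capitals mark the same letters at -185 (CACGTG), -139 and -100 (CCAAT) and -46 (TATAAA). In the upstream Cdkn1a window (chr17:29090729-29091028, plus strand) capitals mark a match to 2 p53 half-sites (RRRCWWGYYY) set 0 to 13 bases apart. The match begins at -73. The capitals follow this pattern alone, and letters next to them were not judged, so that they do not bound a mapped response element.
Gadd45g promoter: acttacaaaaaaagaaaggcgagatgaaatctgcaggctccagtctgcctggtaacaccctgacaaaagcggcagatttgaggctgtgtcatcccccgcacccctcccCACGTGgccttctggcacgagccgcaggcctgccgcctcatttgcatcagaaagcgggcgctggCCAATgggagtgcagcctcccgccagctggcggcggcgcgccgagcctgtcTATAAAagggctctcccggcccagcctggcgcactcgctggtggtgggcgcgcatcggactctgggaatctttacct
Gadd45b promoter: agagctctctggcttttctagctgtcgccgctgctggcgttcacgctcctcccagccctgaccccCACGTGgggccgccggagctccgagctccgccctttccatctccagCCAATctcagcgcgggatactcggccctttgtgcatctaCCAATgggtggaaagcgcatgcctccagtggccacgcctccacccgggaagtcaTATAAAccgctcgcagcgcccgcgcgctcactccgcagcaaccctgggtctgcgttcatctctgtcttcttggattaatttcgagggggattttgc
Cdkn1a promoter: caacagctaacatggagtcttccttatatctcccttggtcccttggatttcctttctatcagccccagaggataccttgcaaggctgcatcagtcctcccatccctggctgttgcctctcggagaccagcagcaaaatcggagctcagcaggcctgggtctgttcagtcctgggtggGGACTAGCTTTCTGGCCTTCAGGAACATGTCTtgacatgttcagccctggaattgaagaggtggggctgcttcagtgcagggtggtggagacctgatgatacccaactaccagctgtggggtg
Motifs were searched on both strands. CACGTG was in 7.15% of 32851 promoter windows of the same length, CCAAT in 37.4% and TATAAA in 13.6%, and all of these motifs stood together in 0.247% of windows (81), among them those of Gadd45g, Gadd45b and Trp53. This combination is the one marked in the Gadd45g and Gadd45b windows, so that its share supports nothing about them. In the Trp53 window the arrangement differs, with TATAAA on the other strand at -248 and CACGTG after the start, at 11. The paired p53 half-site pattern was in 0.0731% of all windows and, of the windows matched for the members, in the upstream window of Cdkn1a. A single half-site was in 8.36% of all windows. Among the members it was in windows of Gadd45a, Cdkn1a, Mdm2, Ccng1, Trp53, Sesn1 and Bax, and not in those of Gadd45g and Gadd45b. A match describes letters in a window and does not show binding.

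The libraries held 13229 to 16385 barcodes and 90728590 to 115117649 UMIs. After removal of barcodes with 50% or more mitochondrial UMIs (32.7% to 49.8% of barcodes) and of doublets, 32280 cells were kept in 35 clusters, 8 of which stayed unnamed, and the median depth of kept cells ran from 3477 UMIs in WT-ND to 5352 in SP-ND. PT-like cells numbered 4694, with 2040 on ND and 1109 on HFD in WT mice, and 922 on ND and 623 on HFD in SP mice, and their median depth was 9021, 10331, 15441.5 and 12433 UMIs. Slc5a2 itself stood in PT-like cells at 319.5 CPM on ND and 261.6 on HFD in WT mice, and 56.0 on ND and 99.7 on HFD in SP mice, so that both SP libraries were below both WT libraries. Pairs of libraries shared 54 to 77 barcodes, of which 0 to 2 were PT-like cells in both. Levels are given in CPM, the pooled UMIs of a gene in the cells of a class and library, scaled to all UMIs of those cells, and differences as the log2 ratio of CPM. Reads come from the 3′ end of transcripts, and a value is read along a gene across libraries or cell classes, not between genes. With 1 library per condition there was no replicate error and no test, and all 95% intervals (exact Poisson ones on CPM and exact conditional binomial ones on ratios) cover counting error only, not differences between mice or between preparations.

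In PT-like cells, Gadd45g (Gadd45 gamma, chr13:51846678-51848468) was the member furthest apart between libraries. It stood at 25.0 CPM on ND (22.9 to 27.3) and 76.7 on HFD (72.3 to 81.2) in WT mice, and 96.7 on ND (91.5 to 102.0) and 133.8 on HFD (126.0 to 142.0) in SP mice. The 4 intervals did not overlap, with WT-ND lowest and SP-HFD highest. SP-ND was 3.86-fold above WT-ND, a log2 ratio of 1.95 (1.80 to 2.098), and SP-HFD was 1.75-fold above WT-HFD, at 0.80 (0.68 to 0.92). Along the diet axis, WT-HFD was 3.06-fold above WT-ND, at 1.62 (1.46 to 1.77), and SP-HFD was 1.38-fold above SP-ND, at 0.47 (0.35 to 0.59). These comparisons share libraries, and the low WT-ND value enters the ones with the largest ratios. A ratio of at least 2-fold was thus reached only where WT-ND was the library compared against.

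**Figure D1:**
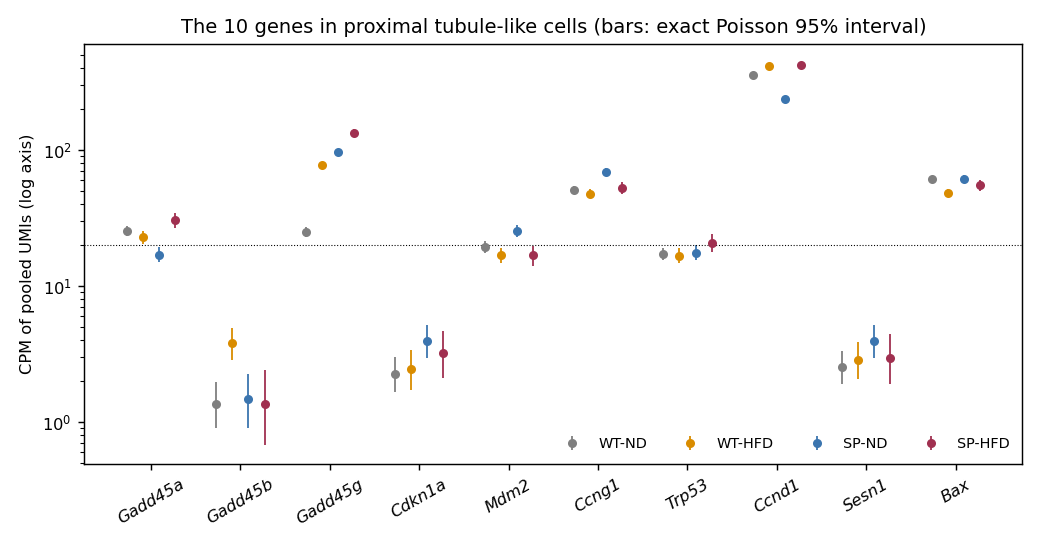
CPM of the 10 genes in PT-like cells (log axis), 1 point per library with its exact Poisson 95% interval, and a dotted line at 20 CPM. The Gadd45g points run from 25.0 in WT-ND to 133.8 in SP-HFD, while Gadd45b, Cdkn1a and Sesn1 lie below the dotted line in every library.

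In the libraries with more Gadd45g, its UMIs were also spread over more PT-like cells. After each cell was thinned to 1000 UMIs, a Gadd45g UMI was found in 2.70% of cells on ND (Clopper-Pearson 2.04 to 3.50) and 7.34% on HFD (5.87 to 9.04) in WT mice, and 10.0% on ND (8.14 to 12.1) and 11.5% on HFD (9.11 to 14.3) in SP mice, with 4, 5, 2 and 7 shallower cells left out. Without thinning, the shares were 19.0%, 47.5%, 57.6% and 60.8%. Podocyte-like cells, the class with the lowest Gadd45g, had a UMI in 1.18%, 3.08%, 1.21% and 2.20% of thinned cells, at median depths of 3400, 5416.5, 6656 and 6018 UMIs. The PT share lay above the podocyte share in each library, but in WT-ND the intervals of both overlapped (podocyte 0.386 to 2.74). In pooled CPM, PT-like cells of WT-ND stood at 25.0 (22.9 to 27.3), and podocyte-like cells at 10.9 to 21.8 over the 4 libraries. Whether the podocyte share is a background was not tested. The 10% of PT-like cells with most Gadd45g UMIs held 64.8%, 47.3%, 45.0% and 45.5% of them.

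By point values, the order of the 4 libraries was found in both main parts of the PT. In the cluster led by early PT genes, Gadd45g stood at 23.8 CPM on ND and 75.4 on HFD in WT mice, and 108.9 on ND and 122.8 on HFD in SP mice. In the main cluster led by late PT genes, where Slc5a2 in WT mice was 74.3 and 68.8 CPM beside 567 and 409 in the early cluster, Gadd45g stood at 26.2, 78.8, 83.1 and 147.1 CPM in the same order. There the intervals of WT-HFD (72.1 to 86.0) and SP-ND (76.1 to 90.5) overlapped, so that their order was not resolved. The difference between the SP libraries was smaller in the early cluster (0.17, interval 0.02 to 0.33) than in the late one (0.82, interval 0.64 to 1.01). A small late cluster with 1, 9, 17 and 55 cells was too thin in WT-ND, where Gadd45g had 0 UMIs. Of 12 ways of choosing or correcting the cells, 11 gave the order WT-ND, WT-HFD, SP-ND, SP-HFD by point values. The exception added unnamed clusters with PT markers above all other cells, which brought WT-HFD to 115.5 CPM, above SP-ND at 102.1 CPM, and lowered the ratio of SP-HFD against WT-HFD to 0.31. The largest of these clusters, with 1237, 1550, 320 and 144 cells, held Gadd45g at 51.3, 174.0, 97.1 and 119.4 CPM. In WT-HFD its cells outnumbered the 1109 PT-like cells and held 8820212 UMIs, against 1384319 in its WT-ND cells. The ratio of SP-HFD against SP-ND was 0.11 in cells with under 30% mitochondrial UMIs and 0.15 in cells of 3000 to 10000 UMIs.

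**Figure D2:**
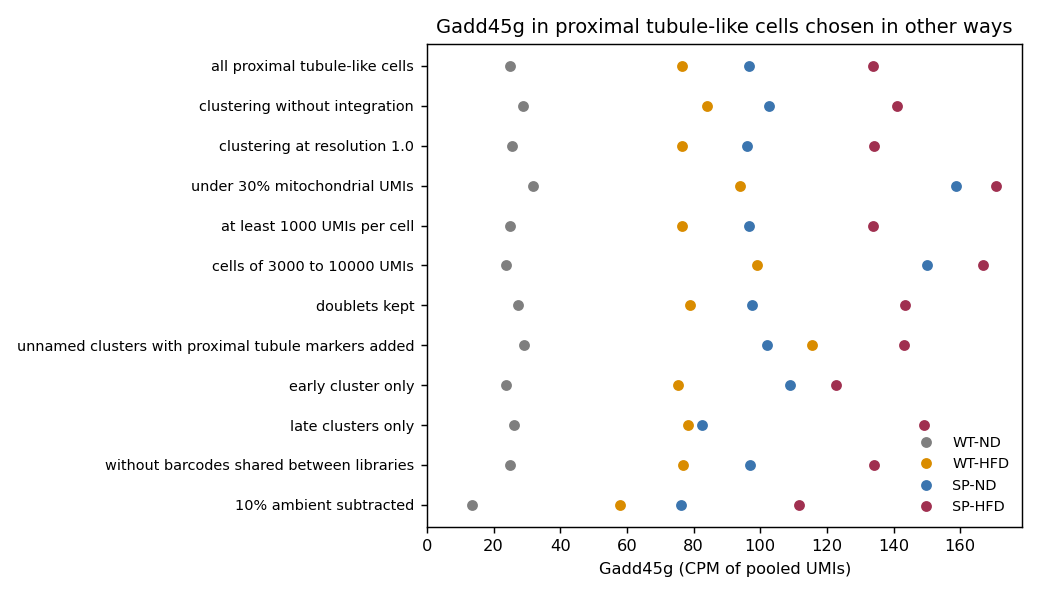
CPM of Gadd45g (linear axis from 0) in the 4 libraries for all PT-like cells and for 11 other ways of choosing or correcting the cells. WT-ND is lowest and SP-HFD highest in all 12, and WT-HFD passes SP-ND only where unnamed clusters with PT markers are added.

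Some other measures in PT-like cells also set WT-ND apart from the rest, and others did not. The summed level of 8 macrophage and dendritic cell markers was 13.05 CPM on ND and 50.1 on HFD in WT mice, and 45.1 on ND and 47.3 on HFD in SP mice. Most of it was Cd74, the invariant chain of MHC class II, at 7.70, 35.1, 36.4 and 27.6 CPM. H2-Aa stood at 2.31, 10.6, 4.90 and 8.23 CPM and Lyz2 at 0.915, 1.59, 1.83 and 4.92 CPM. The complement genes of kidney macrophages were low, with C1qa at 0.144, 0.331, 0.512 and 1.72 CPM and C1qb at 0.193, 0.530, 0.293 and 1.72 CPM. All of these were lowest in WT-ND. Csf1r was lowest in SP-ND, at 1.73, 1.79, 0.951 and 2.70 CPM. Adgre1 had 1 or 2 UMIs a library, and Itgax was at 0 in 3 libraries. The summed markers of thick ascending limb, distal convoluted tubule and endothelial cells were also lowest in WT-ND. Those of B, T or NK, neutrophil, podocyte, intercalated, thin limb, and connecting tubule and principal cells were instead lowest in SP-ND. Mesangial cell or fibroblast markers were lowest in WT-HFD, and erythroid and PT markers in SP-HFD. Gadd45g in macrophage-like cells themselves was 180 to 264 CPM. PT markers in cells outside the tubule, a measure of free RNA, took 0.180% of UMIs in WT-ND and 0.0518% to 0.0915% in the other libraries. The part of these measures in the Gadd45g difference was not tested; subtracting 10% of UMIs as free RNA left 13.5, 57.9, 76.1 and 111.6 CPM.

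The other family members did not share this pattern in PT-like cells. Gadd45a (chr6:67035096-67037457), the p53-responsive member, stood at 25.5 CPM on ND and 22.7 on HFD in WT mice, and 17.0 on ND and 30.2 on HFD in SP mice. The SP libraries were thus the lowest and the highest. SP-ND was below WT-ND (-0.59, interval -0.81 to -0.36) and SP-HFD above WT-HFD (0.41, interval 0.17 to 0.65). Gadd45b (chr10:80930073-80932204) was close to absent from the cells named PT-like, at 1.35, 3.77, 1.46 and 1.35 CPM, which rest on 28, 57, 20 and 11 UMIs. Unnamed clusters left out of this class held more. The largest one with PT markers stood at 13.7, 57.8, 10.3 and 9.95 CPM. Another, whose closest but weakly matched list was early PT, stood at 71.9, 71.0, 186 and 198 CPM. In PT-like cells the WT-HFD value of Gadd45b stood above the other libraries, with a log2 ratio of 1.49 (0.81 to 2.19) against WT-ND and of -1.48 (-2.56 to -0.54) for SP-HFD against WT-HFD, at a level below the 20 CPM set for a gene to count as measured.

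The inducible p53 targets Cdkn1a and Sesn1 were at or near the bottom of their range in PT-like cells. Cdkn1a (chr17:29090976-29100727), which encodes the CDK inhibitor p21, stood at 2.26, 2.45, 3.95 and 3.20 CPM, from 47, 37, 54 and 26 UMIs. Sesn1 (chr10:41809935-41908424), which encodes sestrin 1, a stress protein that restrains mTORC1, stood at 2.55, 2.85, 3.95 and 2.95 CPM. Both were highest in SP-ND, with log2 ratios against WT-ND of 0.80 (0.21 to 1.40) for Cdkn1a and 0.63 (0.06 to 1.21) for Sesn1. In the other comparisons their intervals held 0. The unnamed cluster left out of this class, whose closest but weakly matched list was early PT, held more of both. Cdkn1a stood there at 55.5, 13.1, 111 and 42.8 CPM. Sesn1 stood there at 12.1, 12.1, 16.2 and 24.1 CPM, from 14, 13, 14 and 9 UMIs.

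Among the p53 regulators, Trp53 itself (chr11:69580359-69591873) stood at 17.2, 16.6, 17.6 and 20.8 CPM in the order of the libraries, with SP-HFD slightly higher than WT-HFD (0.32, interval 0.03 to 0.61). Mdm2 (chr10:117688875-117710758) stood at 19.3, 16.8, 25.2 and 16.7 CPM, highest in SP-ND. Ccng1 (chr11:40748552-40755311), the p53 target encoding cyclin G1, which recruits a phosphatase to MDM2, was highest in SP-ND as well, at 50.6, 47.6, 68.7 and 52.3 CPM. SP-ND was above WT-ND for Mdm2 (0.39, interval 0.18 to 0.60) and for Ccng1 (0.44, interval 0.31 to 0.57), and SP-HFD was below SP-ND for both (-0.59, interval -0.89 to -0.30, and -0.39, interval -0.56 to -0.23). Bax (chr7:45461697-45466898), the pore-forming BCL2 family member of mitochondrial apoptosis, stood at 60.8, 48.1, 61.3 and 55.1 CPM, with both HFD libraries below both ND libraries.

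Ccnd1 (chr7:144929931-144939925), which encodes cyclin D1, the partner of CDK4 and CDK6 in G1, was lowest in SP-ND. It stood at 356.7 CPM on ND and 410.4 on HFD in WT mice, and 236.8 on ND and 419.2 on HFD in SP mice. The HFD libraries differed by 0.03 (-0.03 to 0.09), SP-ND was below WT-ND (-0.59, interval -0.65 to -0.53) and SP-HFD above SP-ND (0.82, interval 0.75 to 0.89). The early cluster held more of it, at 524, 515, 319 and 515 CPM, than the late cluster, at 191, 274, 146 and 296 CPM, and SP-ND was the lowest library in both. The WT libraries were thus close to each other in the early cluster and further apart in the late one.

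Read against all genes, the measured members other than Gadd45g stayed within 2-fold in PT-like cells. Of members with at least 20 CPM in either library, 1 of 6 (Gadd45g) was at least 2-fold higher in SP-ND than in WT-ND, against 0.792% of all measured genes, and 0 of 6 were lower (0.616%). For SP-HFD against WT-HFD the count was 0 of 6 in either direction (0.309% of genes higher, 0.0221% lower). For WT-HFD against WT-ND it was 1 of 5 higher (Gadd45g; 1.6% of genes) and 0 lower (1.13%). For SP-HFD against SP-ND it was 0 of 7 in either direction (3.16% and 2.22%). The median log2 ratio of the measured members was 0.20, 0.26, -0.09 and 0.24 in these comparisons, beside 0.08, 0.05, 0.03 and 0.00 over all measured genes. The counts and medians include Gadd45g, by whose values the set was chosen. They also include Gadd45a, Mdm2 or Trp53 where only 1 library of a comparison reached 20 CPM. They are given as a description and support nothing about the members. Both SP libraries stood above both WT libraries for Gadd45g, as its choice implied, and for Ccng1 and Trp53. That makes 3 of the 7 members that reached 20 CPM in a library (18.3% of all genes). Trp53 reached 20 CPM in SP-HFD alone, where it was highest, and SP-ND differed from WT-ND by 0.03 (-0.21 to 0.27). The count thus supports nothing. Both HFD libraries stood above both ND libraries for Ccnd1 alone (35.2%) and below for Mdm2 and Bax (29.4%). Mdm2 reached 20 CPM in SP-ND alone, where it was high.

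**Figure D3:**
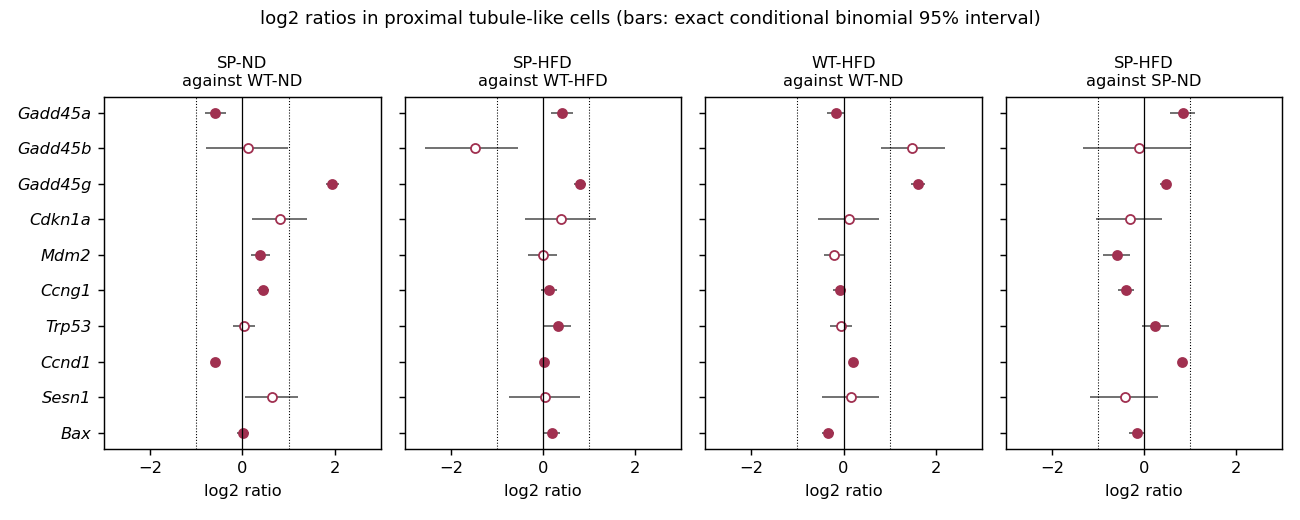
The log2 ratio of each gene in PT-like cells in the 4 comparisons, with exact conditional binomial 95% intervals and dotted lines at 2-fold in either direction. Gadd45g lies beyond 2-fold in SP-ND against WT-ND (1.95) and in WT-HFD against WT-ND (1.62), and the wide intervals of Gadd45b, Cdkn1a and Sesn1 come from low counts.

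Most of the 30 p53 target genes on the wider list were under 20 CPM in PT-like cells. Of them, 8, 7, 7 and 8 were measured in SP-ND against WT-ND, SP-HFD against WT-HFD, WT-HFD against WT-ND and SP-HFD against SP-ND, and their median log2 ratios were 0.07, 0.14, -0.20 and -0.27, beside 0.08, 0.05, 0.03 and 0.00 over all measured genes. Gdf15, a stress-induced secreted cytokine, was the one measured gene of the list past 2-fold. It was lower in SP-HFD than in SP-ND by that margin, as 2.22% of all genes were, with a log2 ratio of -1.86 (interval -2.23 to -1.51) and levels of 18.2, 9.60, 33.5 and 9.22 CPM. Gdf15 reached 20 CPM in SP-ND alone, where it was high, so that its count as past 2-fold supports nothing. Under the minimum, 6 p53 targets, named after their values were seen, also differed at least 2-fold in a comparison, with intervals that left out 0. Btg2, an antiproliferative p53 target, stood at 6.07, 13.7, 18.3 and 10.8 CPM, lowest in WT-ND as Gadd45g was. Plk3, a stress-responsive kinase, stood at 7.80, 9.67, 18.4 and 11.1 CPM, and Sesn2, which restrains mTORC1, at 19.9, 10.99, 16.3 and 7.74 CPM. Fdxr, the mitochondrial ferredoxin reductase, was 5.19 CPM in SP-ND and 11.3 in SP-HFD, and Phlda3 and Plk2 were near or under 2 CPM in both of these libraries. Of 14 p53 regulators and DNA damage kinases 4 to 6 were measured, of 10 GADD45 partners 3 to 5, of 14 G1 cyclins, kinases and inhibitors 5 or 6, of 14 BCL2 family and caspase genes 4 to 6, of 10 integrated stress response genes 2 or 3 and of 10 proliferation genes 1, and 0 of these were past 2-fold in any of the 4 comparisons. At the 20 CPM minimum, the 2-fold differences of Gadd45g against WT-ND had no counterpart among the 7 or 8 measured p53 targets. Below it, Btg2 was past 2-fold against WT-ND in both SP-ND and WT-HFD, and Plk3 in SP-ND only. The genes below the minimum were named after their values were seen, without a share over all genes beside them, and support nothing.

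Immediate early genes, which cells switch on within minutes of many stimuli and which tissue dissociation also raises, had their highest summed level in SP-ND and their lowest in WT-ND, and both SP libraries were above both WT libraries. The sum over the list in PT-like cells was 377, 438, 595 and 452 CPM. Of 22 genes on that list, 7 were measured in SP-ND against WT-ND, with a median log2 ratio of 0.76 beside 0.08 over all genes, and 2 of the 7, Klf6 and Zfp36, were past 2-fold higher, as 0.792% of all genes were. Klf6, a zinc finger transcription factor, stood at 12.4, 14.7, 33.4 and 20.0 CPM, and Zfp36, which destabilizes AU-rich mRNAs, at 30.0, 23.9, 70.7 and 25.2 CPM. In SP-HFD against SP-ND, 10 were measured with a median of -0.58, and 3 of the 10 were past 2-fold lower, as 2.22% of all genes were. These were Zfp36, Egr1 (12.9, 7.02, 22.5 and 6.51 CPM) and Junb (15.5, 20.3, 24.7 and 12.0 CPM), both immediate early transcription factors. Klf6 in the first comparison and Egr1 and Junb in the second reached 20 CPM in SP-ND alone, where they were high, so that these counts support nothing. The part of the list in the values of the members was not tested.

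Across the kidney, Gadd45a peaked in another cell class than Gadd45b and Gadd45g. Gadd45g was highest in thin limb and inner medulla-like cells (315 to 762 CPM over the 4 libraries), followed by thick ascending limb-like (230 to 425) and connecting tubule and principal cell-like cells (259 to 435), and lowest in podocyte-like cells (10.9 to 21.8). Neighbours in this order overlapped from the thin limb down to T or NK cell-like cells (22.1 to 71.5), with podocyte-like cells below them by point values only. The lowest T or NK cell-like value, that of WT-ND, comes from 234 cells with 407301 UMIs of all genes, so that this gap was not resolved. PT-like cells ranked 9 of 11 classes (25.0 to 133.8). Gadd45a was highest in podocyte-like cells at 475 to 766 CPM, with no overlap with the next class, intercalated cell-like cells at 102 to 132, and it was 17.0 to 30.2 in PT-like cells. Gadd45b was highest in thin limb and inner medulla-like cells (234 to 761), and its PT level of 1.35 to 3.77 CPM was the lowest of the 11 classes, with no overlap with the class next to it, thick ascending limb-like cells at 25.5 to 35.0. Of these classes, podocyte-like cells thus held the most Gadd45a and, by the mean, the least Gadd45g.

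**Figure D4:**
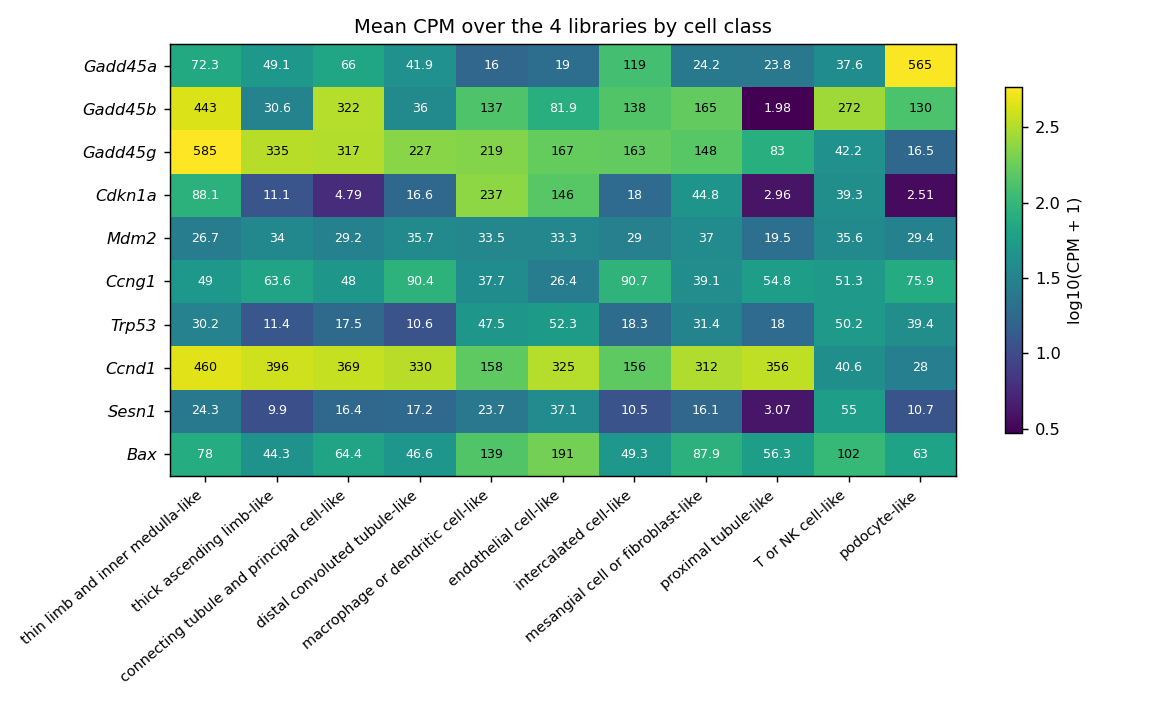
Mean CPM over the 4 libraries of each gene (rows) in the 11 cell classes with at least 50 cells in every library (columns), with colour on a log10(CPM + 1) scale. Gadd45a peaks in podocyte-like cells (565), Gadd45b and Gadd45g peak in thin limb and inner medulla-like cells (443 and 585), and Gadd45b, Cdkn1a and Sesn1 are at 1.98, 2.96 and 3.07 in PT-like cells.

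Cdkn1a, Bax, Trp53 and Sesn1 reached their highest class means outside the nephron epithelium. Cdkn1a was highest in macrophage or dendritic cell-like cells (207 to 253 CPM) and in endothelial cell-like cells (107 to 212), and lowest in connecting tubule and principal cell-like (1.95 to 7.35), PT-like (2.26 to 3.95) and podocyte-like cells (at most 5.68). Bax was highest in endothelial cell-like cells (154 to 226) and lowest in thick ascending limb-like cells (35.0 to 51.6), and Trp53 was highest in endothelial cell-like cells by the mean (49.7 to 55.6) and lowest in distal convoluted tubule-like cells (8.62 to 11.7). Sesn1 was highest in T or NK cell-like cells (28.6 to 88.7) and lowest in PT-like cells (2.55 to 3.95), which did not overlap with the next class. Mdm2 varied little, with class means from 19.5 in PT-like to 37.0 CPM in mesangial cell or fibroblast-like cells. Ccng1 went the other way from these genes, with the highest means in intercalated cell-like (67.5 to 106) and distal convoluted tubule-like cells (85.3 to 95.7) and the lowest in endothelial cell-like cells (21.1 to 34.0). Ccnd1 was 381 to 498 CPM in thin limb and inner medulla-like cells and 18.1 to 35.1 in podocyte-like cells. Neutrophil-like cells, with 34 to 58 cells a library, were left out of these orders and held 773 to 1775 CPM of Gadd45b and 254 to 436 of Gadd45a.

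By genotype and diet, Gadd45g differed in several cell classes. In all kept cells together it stood at 115.7 CPM on ND and 188.2 on HFD in WT mice, and 205.3 on ND and 222.3 on HFD in SP mice. These pooled values also depend on the mix of cell classes. PT-like cells, a class with low Gadd45g, were 2040 of 9924 kept cells in WT-ND and 1109 of 8947 in WT-HFD. In SP-ND they were 922 of 6389 and in SP-HFD 623 of 7020. The part of the mix in the pooled Gadd45g values was not tested. SP-ND was above WT-ND in 9 of 11 classes and SP-HFD above WT-HFD in 6 of 11, while WT-HFD was above WT-ND in 8 of 11 and SP-HFD above SP-ND in 5 of 11. Classes at least 2-fold higher in SP-ND than in WT-ND were T or NK cell-like (where 10.0% of all measured genes were as well), distal convoluted tubule-like (0.241%), mesangial cell or fibroblast-like (5.56%) and PT-like cells (0.792%). Distal convoluted tubule-like cells stood at 105, 274, 230 and 299 CPM, the same pattern of a low WT-ND library as in PT-like cells, with a log2 ratio of 1.13 (0.97 to 1.29) between the ND libraries and of 0.13 (0.02 to 0.24) between the HFD libraries. Thick ascending limb-like cells stood at 230, 425, 345 and 337 CPM and mesangial cell or fibroblast-like cells at 76.9, 197, 180 and 138 CPM, with WT-ND lowest in both and WT-HFD highest. By point values WT-ND was also the lowest library in macrophage or dendritic cell-like, T or NK cell-like and podocyte-like cells, so that its low value was not confined to the tubule. The WT-HFD cells of the mesangial cell or fibroblast-like class were mixed, since its own 9 markers summed to 34402, 15098, 40369 and 28149 CPM, and the 7 thick ascending limb markers to 828, 3098, 491 and 632 CPM. The 14 PT markers summed to 2083, 2701, 719 and 449.6 CPM there. The part of these markers in the Gadd45g values of that class was not tested. In endothelial cell-like cells, at 207, 111, 228 and 121 CPM, the libraries lay apart by diet, and the intervals of both genotype ratios held 0. The median over all measured genes was itself 0.39 for SP-HFD against WT-HFD and -0.20 for WT-HFD against WT-ND in mesangial cell or fibroblast-like cells, and 0.25 and -0.18 in intercalated cell-like cells, so that small ratios there sit on a shifted baseline.

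**Figure D5:**
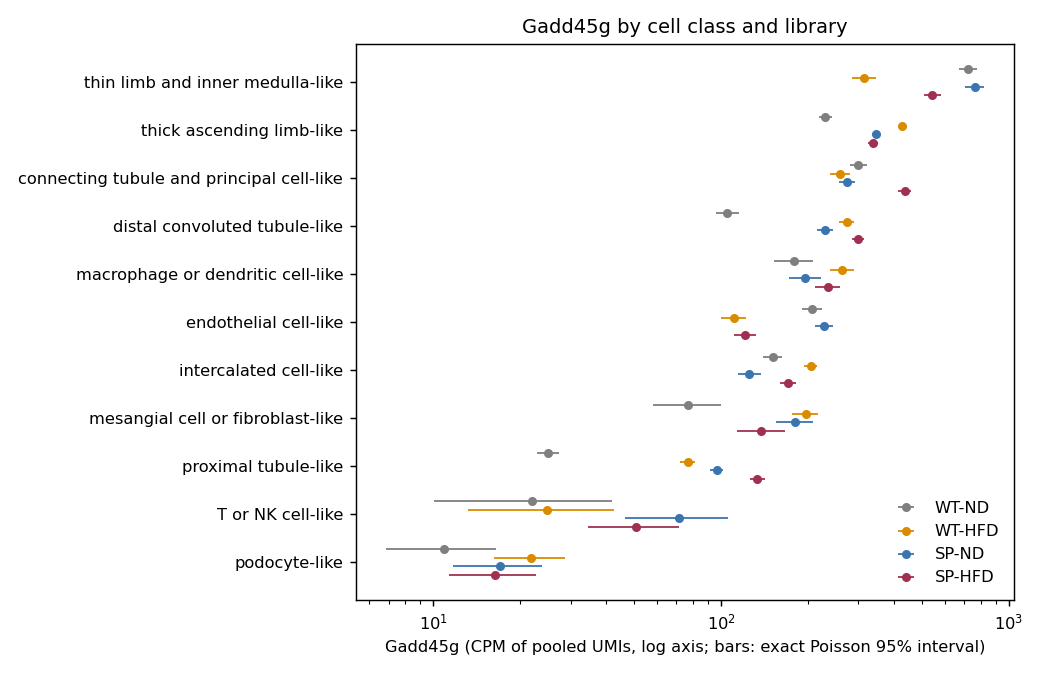
CPM of Gadd45g (log axis) in 11 cell classes, 1 point per library with its exact Poisson 95% interval. WT-ND is the lowest library in PT-like, distal convoluted tubule-like, thick ascending limb-like and mesangial cell or fibroblast-like cells. By point values it is also lowest in macrophage or dendritic cell-like, T or NK cell-like and podocyte-like cells. Both HFD libraries are below both ND libraries in thin limb and endothelial cell-like cells.

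Thin limb and inner medulla-like cells were the class in which most members separated by diet, and they were lower on HFD. Both HFD libraries were below both ND libraries for 7 of 10 members (Gadd45a, Gadd45b, Gadd45g, Cdkn1a, Mdm2, Ccng1 and Ccnd1), against 20.3% of all genes. Cdkn1a stood at 135 CPM on ND and 31.0 on HFD in WT mice, and 143 on ND and 43.2 on HFD in SP mice, a log2 ratio of HFD against ND of -2.12 (-2.67 to -1.60) in WT and -1.73 (-2.17 to -1.29) in SP. Gadd45b stood at 761, 234, 430 and 347 CPM, Gadd45g at 721, 315, 762 and 542 CPM and Gadd45a at 108, 53.5, 72.0 and 55.4 CPM, so that the diet difference was larger in WT for each of these. Mdm2 differed by -0.04 in WT, within its counting interval. In WT-HFD against WT-ND 4 of 10 members were at least 2-fold lower (Gadd45a, Gadd45b, Gadd45g and Cdkn1a), against 3.68% of genes, and 0 were higher (2.84%). Gadd45a sat at this limit, with a log2 ratio of -1.01. It fell short of 2-fold without mitochondrial genes (-0.96) and under another scaling (-0.95). In SP-HFD against SP-ND 1 of 10 was lower (Cdkn1a), against 1.76% of genes, and 0 were higher (1.6%).

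These thin limb values rest on 140, 150, 119 and 206 cells, and other stress genes were lower in the same libraries. The immediate early list summed to 21608 CPM on ND and 9142 on HFD in WT mice, and 15624 on ND and 11479 on HFD in SP mice, and the integrated stress response list to 3267, 1245, 2182 and 1557 CPM. Both lists were highest in WT-ND and lowest in WT-HFD, and in them 0 of 22 and 1 or 2 of 10 genes were at 0. The markers of the class itself summed to 6535, 7433, 7303 and 7937 CPM, PT markers to 846, 1358, 423 and 280 CPM and thick ascending limb markers to 928, 2276, 1180 and 1765 CPM. The part of these in the member values was not tested.

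Endothelial cell-like cells showed the same direction for the Gadd45 family. Both HFD libraries were below both ND libraries for Gadd45a, Gadd45b, Gadd45g and Ccng1, 4 of 10 members (24.7% of genes), and above them for Bax (25.8%). Gadd45b stood at 88.4, 58.7, 108 and 72.1 CPM, and Gadd45a at 20.1, 16.5, 22.4 and 17.1 CPM. Gadd45a reached 20 CPM in the ND libraries alone, where it was high, so that the count of 4 of 10 supports nothing. Cdkn1a was instead highest in the SP libraries, at 107, 121, 212 and 145 CPM. The immediate early list summed to 10365, 5996, 12004 and 5668 CPM, low in the same HFD libraries, and its part was not tested.

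Distal convoluted tubule-like cells ran in the opposite direction. Both HFD libraries were above both ND libraries for 6 of 9 members that reached 20 CPM (Gadd45a, Gadd45b, Gadd45g, Mdm2, Ccnd1 and Bax), beside 37.7% of all genes. Ccnd1 stood at 214 CPM on ND and 392 on HFD in WT mice, and 203 on ND and 512 on HFD in SP mice, a log2 ratio of HFD against ND of 0.88 (0.76 to 0.99) in WT and 1.34 (1.23 to 1.45) in SP. Gadd45b stood at 16.1, 67.8, 25.9 and 34.1 CPM, with WT-HFD far above the rest. In WT-HFD against WT-ND 2 of 8 members (Gadd45b and Gadd45g) were at least 2-fold higher (1.12% of genes), and in SP-HFD against SP-ND 1 of 8 (Ccnd1; 0.871%). Of the WT libraries, Gadd45b reached 20 CPM in WT-HFD alone, where it was high. The Gadd45g log2 ratio fell from 1.38 to 0.98 in cells with under 30% mitochondrial UMIs. The count of 2 of 8 thus supports nothing. The immediate early list here summed to 1247, 2743, 1712 and 2064 CPM and PT markers to 733, 265, 307 and 215 CPM, and their part in these values was not tested.

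Ccnd1 and Bax were the members with higher levels in both HFD libraries in the largest numbers of classes. Both HFD libraries were above both ND libraries for Ccnd1 in 5 of 11 classes, all of them tubular epithelium (PT, thick ascending limb, distal convoluted tubule, connecting tubule and principal cell, and intercalated cell-like). In thick ascending limb-like cells 31.9% of all genes did the same. In thin limb and inner medulla-like cells, also tubular epithelium, both HFD libraries were instead below both ND libraries for Ccnd1. In PT-like cells its log2 ratio of WT-HFD against WT-ND kept its sign in 11 of 14 alternatives (-0.10 to 0.52). In connecting tubule and principal cell-like cells Ccnd1 stood at 273, 368, 275 and 561 CPM, where both HFD libraries lay above both ND libraries for 24.7% of all genes. In intercalated cell-like cells it stood at 117, 213, 104 and 191 CPM (19.1% of genes). The WT-HFD cells of that class were mixed. Its own markers summed to 7724, 5986, 7763 and 9722 CPM. Thick ascending limb markers summed there to 624, 2241, 580 and 798 CPM, and PT markers to 732, 2000, 309 and 216 CPM. The part of these markers in the Ccnd1 values of that class was not tested. For Bax both HFD libraries were above both ND libraries in 7 of 11 classes, with podocyte-like (24.8% of all genes) and T or NK cell-like cells (22.3%) beside those already named, while in PT-like cells both were below. The ratio was above 0 in 9 of 11 classes in each genotype and at least 2-fold in 1 class, T or NK cell-like cells, where the gene stood at 66.3, 147, 83.0 and 111 CPM (10.5% of genes at least 2-fold higher in WT-HFD than in WT-ND).

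The genes whose pattern was closest to Gadd45g were sought over the 44 values of 11 classes in 4 libraries, as the Pearson correlation of log2(CPM + 1) among 10884 genes. They were Smagp (0.83), Specc1 (0.82), Gpi1 (0.79), Kifc3 (0.78) and Ccnd1 (0.78). The 44 points share libraries and depth. In PT-like cells Gpi1, the glycolytic enzyme glucose-6-phosphate isomerase, stood at 149, 151, 155 and 152 CPM and Smagp, a small cell adhesion glycoprotein, at 17.4, 24.6, 18.9 and 18.4 CPM, without the spread of Gadd45g. Specc1 stood at 0.578, 1.85, 1.90 and 2.46 CPM, lowest in WT-ND, at levels too low to be measured by the 20 CPM rule.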

How the data were processed

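The authors processed the libraries (10x Genomics 3′ v3.1, whole kidneys digested with enzymes, partly at 37°C) in Cell Ranger, and deposited raw UMI counts per gene and barcode, without normalization. The submitters' processing notes name version 2.1.1 and the file headers version 6.1.2, with mm10 as the genome. Every barcode holds at least 500 UMIs, and no ambient correction is stated for the deposited counts. Pooled counts are exact to their Poisson error, which among the members in PT-like cells is widest for Gadd45b (11 UMIs in SP-HFD). Some values outside this class rest on fewer UMIs, such as Gadd45b in the largest unnamed cluster with PT markers (2 UMIs in SP-HFD).

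Genes with a UMI in fewer than 3 cells were dropped, leaving 21162. Barcodes with 200 to 5000 genes and under 50% mitochondrial UMIs were kept. Doublets were scored against simulated doublets (50 neighbours, 30 principal components), since scDblFinder was not available, and the top 0.8% per 1000 cells were removed. Libraries were joined by anchor-based CCA, and clusters were found at a resolution of 0.5 in 50 principal components (R 4.3.3, Seurat 5.3.0, SeuratObject 5.2.0), without the members and pathway lists among the features. Clusters were named from marker lists, with thresholds (mean log2 ratio of at least 1, at least 3 markers detected) set after the clusters had been seen. Counts were pooled by class and library in Python 3.11.15 (pandas 2.3.3, numpy 2.4.6, scikit-learn 1.9.0, scipy 1.17.1, matplotlib 3.10.9). A gene was measured at 20 CPM or more in either library, and past 2-fold is a ratio of pooled CPM. The scripts were tested on simulated data.

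The members and lists were chosen with earlier results of these data known. Named are the 10 members, Slc5a2, up to 3 genes per list and direction past 2-fold in PT-like cells, and the 5 genes most like Gadd45g. Outside this rule, p53 targets under the minimum were named after their values were seen, and macrophage and dendritic cell markers were named as well. Gene spans are from GENCODE vM21 (GRCm38). Comparisons are SP against WT on each diet and HFD against ND in each genotype. No test was made, for want of replicates. Alternatives changed the integration, the resolution, the limits on mitochondrial UMIs and depth, the doublets, the scaling, the ambient correction and the clusters taken as PT.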

Additional observations from a re-analysis of the deposited data

Results flagged for a closer look

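Barcodes with 50% or more mitochondrial UMIs, which no comparison above used, also carried Gadd45g, and at a higher level outside the control library: 27.1 CPM in WT-ND (5361 barcodes) beside 64.8 in WT-HFD (4983 barcodes), 57.4 in SP-ND (6991 barcodes) and 65.5 in SP-HFD (5574 barcodes). Relative to UMIs without mitochondrial genes, the same barcodes stood at 93.3, 241.7, 239.9 and 282.1 CPM. The values are those of 1 library each, over all cell types among the removed barcodes, and the cell types were not determined.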

How the results depend on the processing

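The Gadd45g log2 ratio in PT-like cells kept its sign under each of 14 alternatives in each of the 4 comparisons (56 of 56), with ranges of 1.66 to 2.66 for SP-ND against WT-ND, 0.31 to 0.95 for SP-HFD against WT-HFD, 1.54 to 2.104 for WT-HFD against WT-ND and 0.11 to 0.85 for SP-HFD against SP-ND. Taking the early PT cluster only, the late PT clusters only, and cells without shared barcodes were alternatives chosen after seeing the data. The moves listed next are those that left the counting interval of the main value. The alternatives use the same cells and have counting error of their own, so that such a move is not shown to pass counting error. For SP-ND against WT-ND (1.95) the value moved to 2.32 in cells under 30% mitochondrial UMIs, 2.66 in cells of 3000 to 10000 UMIs, 2.50 after subtraction of 10% ambient RNA, 2.19 in the early cluster and 1.66 in the late clusters. For SP-HFD against WT-HFD (0.80) it moved to 0.60 as a mean over cells, 0.95 after the ambient subtraction, 0.31 with unnamed PT clusters added and 0.93 in the late clusters. For WT-HFD against WT-ND (1.62) it moved to 2.06 in cells of 3000 to 10000 UMIs, 1.85 as a mean over cells, 2.104 after the ambient subtraction and 1.99 with unnamed clusters added. For SP-HFD against SP-ND (0.47) it moved to 0.11 under 30% mitochondrial UMIs, 0.15 in cells of 3000 to 10000 UMIs, 0.17 in the early cluster and 0.85 in the late clusters. The cause was not tested. The number of genes past 2-fold in PT-like cells, in the order of these comparisons, was 64, 15, 123 and 257 at a minimum of 20 CPM, 152, 57, 323 and 533 at 5 CPM, and 1542, 1249, 2283 and 2070 with no minimum beyond 1 UMI in each library. Other members changed sign under some alternatives, from 2 of 56 for Ccng1 to 11 of 54 for Cdkn1a, also at ratios away from 0: Gadd45b in SP-HFD against WT-HFD (-1.48) ranged from -3.88 to 0.39, Cdkn1a in SP-ND against WT-ND (0.80) from -0.62 to 1.59 and Gadd45a in SP-HFD against WT-HFD (0.41) from -0.24 to 0.55. Of 30 member differences past 2-fold over all classes, 30 kept their sign and 25 to 28 stayed past 2-fold under each of 4 alternatives.

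No paired analysis was possible because each condition is 1 library and the labels carry no replicate numbers, and no library could be left out. Differences between mice, between preparations and between conditions cannot be told apart. PT-like values of Gadd45b, Cdkn1a and Sesn1 rest on 11 to 57 UMIs and show only large differences.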
